A study of Mus musculus with 12 samples.

Results

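Transcripts of a stable clone of NIH-3T3 cells that carries the construct pMDβglobinU17b, labelled as overexpressing the small nucleolar RNA U17 (U17_OE), were compared with those of unmodified NIH-3T3 cells (WT). The 4 arrays titled as U17 OE and the 4 titled as WT were used, 8 of the 12 arrays of the series, with all genes. NIH-3T3 is an immortalised line of mouse embryonic fibroblasts. The other 4 arrays hold a stable clone with the construct ShSnhg3, labelled as a U17 knockdown (U17_KD), and serve for the estimate of the spread and for 1 comparison between the clones. All cells were kept for 24 hours in medium with LPDS, a lipoprotein-deficient serum that withholds external cholesterol. The labels call the arrays of a group biological replicates and do not say that they came from separate cultures, so the p-values measure only the spread between these samples. U17_OE is 1 clone, so a change caused by U17 and a trait of that clone cannot be told apart.

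U17, also named SNORA73, is an H/ACA box small nucleolar RNA that is processed from introns of its host transcript Snhg3. Most RNAs of its class guide pseudouridylation, whereas U17 is known for its part in the cleavage of the ribosomal RNA precursor. Work on these cells tied U17 to the movement of cholesterol inside the cell and to the mRNA of Mgarp, which encodes HUMMR, a mitochondrial protein that hypoxia induces.

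The unit below is the log2 of a probe's background-corrected intensity after adding an offset of 16, and a change is the mean of U17_OE minus the mean of WT on that scale, with its standard error (SE). A gene is written as risen or fallen, or as called, where limma gave an adjusted p under 0.05 over all 16706 probes kept. Each gene is represented by its brightest probe. A gene counts as detected on an array where its value reached 30.5 before the log. The number of arrays limits the precision, and the median SE of a change was 0.12.

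Arrays correlated with r between 0.990 and 0.993 within WT (6 pairs), between 0.980 and 0.993 within U17_OE (6 pairs) and between 0.977 and 0.989 across the groups (16 pairs). U17_OE replicate 3 stood away from the rest. Its differences from the mean of its 3 group mates had an SD of 0.393, against 0.231 to 0.273 for the other U17_OE arrays and 0.216 to 0.258 for the WT arrays. WT replicate 2 lay toward the same side of the principal component that set this array apart. Fibroblast markers were detected on 4 of 4 arrays for 14 of 16 genes in WT and for 12 of 16 in U17_OE. Fap and Postn were at 0 of 4 arrays in both groups and Lum only in U17_OE. Of the markers of other cell types, 7 of 9 for adipocytes, 6 of 11 for muscle, bone and cartilage, 6 of 8 for macrophages and 7 of 10 for epithelial and endothelial cells were detected on 0 of 4 arrays in both groups. The mean log2 level of the measured fibroblast markers ran from 9.81 to 9.89 in WT and from 9.66 to 9.97 in U17_OE. That of the adipocyte markers ran from 7.26 to 7.98 and from 7.78 to 8.12, that of the macrophage markers from 7.05 to 7.39 and from 7.39 to 7.65. The adipocyte and macrophage means rest on 2 measured markers each, of which 1 was called higher. These were Lpl for adipocytes (0.91) and Cd14 for macrophages (0.52), and their part in the results was not tested. The other marker had -0.32 for adipocytes and -0.02 for macrophages and did not pass.

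**Figure D1:**
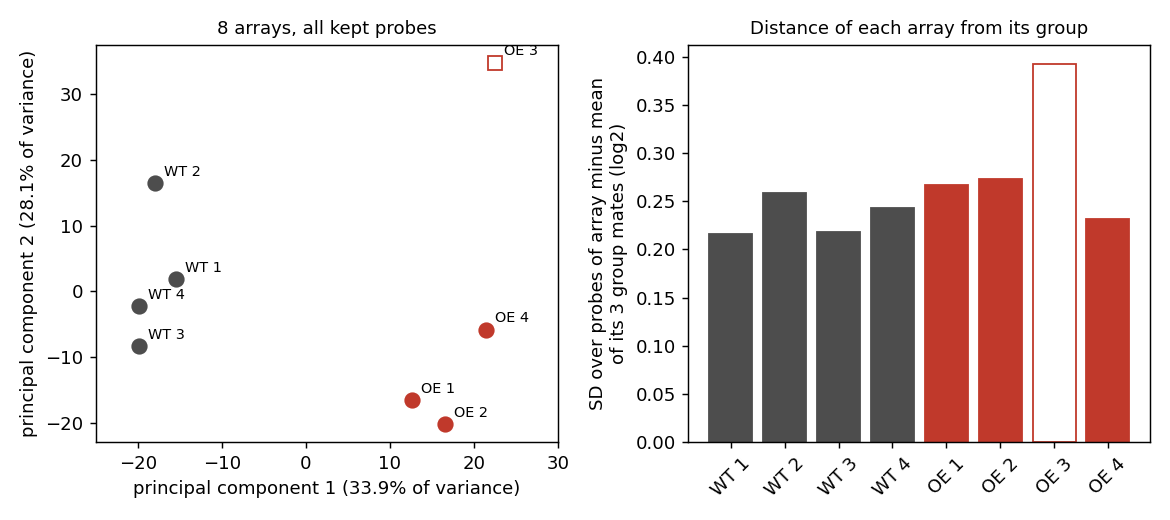
Left, the 8 arrays on their principal components 1 (33.9% of the variance) and 2 (28.1%). Right, the SD over probes of each array's difference from the mean of its 3 group mates, in log2 units; grey is WT, red is U17_OE and the open symbol is U17_OE replicate 3, which has the highest value, 0.393.

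Expression differed between the clone and WT for 1170 of 9108 genes, 12.8% of those measured, with 590 higher (6.48%) and 580 lower (6.37%). Over probes, named or not, the count was 1925, 11.5% of those kept. Most changes were small: 810 of the called genes changed less than 1.5-fold, 95 at least 2-fold and 12 at least 4-fold. Of the 95, 45 were higher (0.494% of genes) and 50 lower (0.549%). For 1456 genes, 16% of those measured, all arrays of one group lay above all arrays of the other, with U17_OE above for 737 (8.09%) and below for 719 (7.89%). Without U17_OE replicate 3, 1788 genes were called (19.6%), 905 higher (9.94%) and 883 lower (9.69%), and 2981 probes (17.8%). Of the 1170 genes, 1098 were called both ways and in the same direction. The median change of all genes was -0.0058. In RNA of a whole culture, fewer cells with a transcript and less of it per cell cannot be told apart.

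The genes that rose most were of mixed function. Gpnmb, a glycoprotein of lysosomes and melanosomes, read 10.58, 10.44, 10.61 and 10.76 on the WT arrays and 13.22, 13.05, 12.64 and 13.10 on the U17_OE arrays. Every U17_OE array was above every WT array, replicate 3 being the lowest of its group, and the rise was 2.40 ± 0.10 SE (limma, adjusted p = 3.3e-11), or 2.53 without replicate 3. Of its 3 other probes, 2 were called in the same direction. Serpina3n, an acute-phase inhibitor of serine proteases, read 7.39, 7.13, 7.43 and 7.41 in WT and 9.17, 9.34, 9.19 and 9.31 in U17_OE. It rose by 1.91 ± 0.10, again with no overlap.

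Signalling and membrane genes stood beside them. Gria1, a subunit of AMPA-type glutamate receptors, read 7.90, 7.52, 7.88 and 7.76 in WT and 9.33, 9.09, 9.23 and 9.26 in U17_OE, and rose by 1.46 ± 0.11 at this probe. Its 3 other probes were called in the same direction with changes from 1.12 to 1.33. Sphk1, the kinase that makes sphingosine 1-phosphate, rose by 1.44 ± 0.15, and Gas6, the ligand of the TAM receptor kinases, by 1.46 ± 0.11. Cp, ceruloplasmin, a copper-carrying ferroxidase, rose by 1.44 ± 0.12; it lies on chromosome 3, whose genes had a median change of -0.20. Tgm2, a crosslinking transglutaminase, rose by 1.34, Rgcc, a regulator of the cell cycle, by 1.48, and Adam23, a member of the ADAM family without protease activity, by 1.29. Ly6c1, which encodes a Ly6 surface antigen, rose by 1.62, the secreted protein gene Olfm1 by 1.61 and Cfap161, named for cilia and flagella, by 1.90. For Slc6a15, an amino acid transporter, the brightest probe rose by 1.59, while its other kept probe had -0.19. Fam13c (1.27) had a wide spread, with U17_OE replicate 3 at 7.40 and the others from 8.05 to 8.51.

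Imprinted, secreted and adhesion genes were among the largest falls. Igf2, the imprinted fetal growth factor, read 11.45, 11.39, 11.41 and 11.26 in WT and 9.35, 9.33, 9.08 and 9.27 in U17_OE. All U17_OE arrays were below all WT arrays, and the gene fell by 2.12 ± 0.09 SE (limma, adjusted p = 4.3e-11). Ndn, the imprinted gene of the growth suppressor necdin, read 11.55, 11.25, 11.54 and 11.61 in WT and 9.73, 9.79, 9.41 and 9.74 in U17_OE, and fell by 1.82 ± 0.10. Both lie on chromosome 7, whose genes had a median change of 0.0025. Cxcl12, the chemokine that binds CXCR4, read 9.85, 9.86, 9.92 and 9.77 in WT and 8.57, 8.29, 7.85 and 8.39 in U17_OE, and fell by 1.57 ± 0.13, with both of its other probes called lower. U17_OE replicate 3 was the lowest array for all 3 genes, and the groups did not overlap.

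Tmem181c-ps, a pseudogene, fell by 2.31, and Tmem181a was at least 3.51-fold lower, detected on 0 of 4 U17_OE arrays, and probes of such near-identical copies may bind the same transcripts. Ctsk, the collagen-cutting protease cathepsin K, read 8.86, 8.62, 8.98 and 8.82 in WT and 7.52, 7.53, 7.56 and 7.50 in U17_OE, and fell by 1.29 ± 0.10. Rgs16, which shortens G protein signalling, fell by 1.40, Itga3, an integrin subunit for laminins, by 1.21, and Elovl4, an elongase of very long fatty acids, by 1.33. Papss2, which makes the sulfate donor of proteoglycans, fell by 1.22, Tpd52 by 1.38, Mfap3l by 1.46, the lectin-like receptor gene Klra4 by 1.60, Rnf113a2 by 1.34 and Prxl2a by 1.16. Egln3, which hydroxylates the hypoxia-inducible factor, fell by 1.26 and is described with its pathway.

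**Figure D2:**
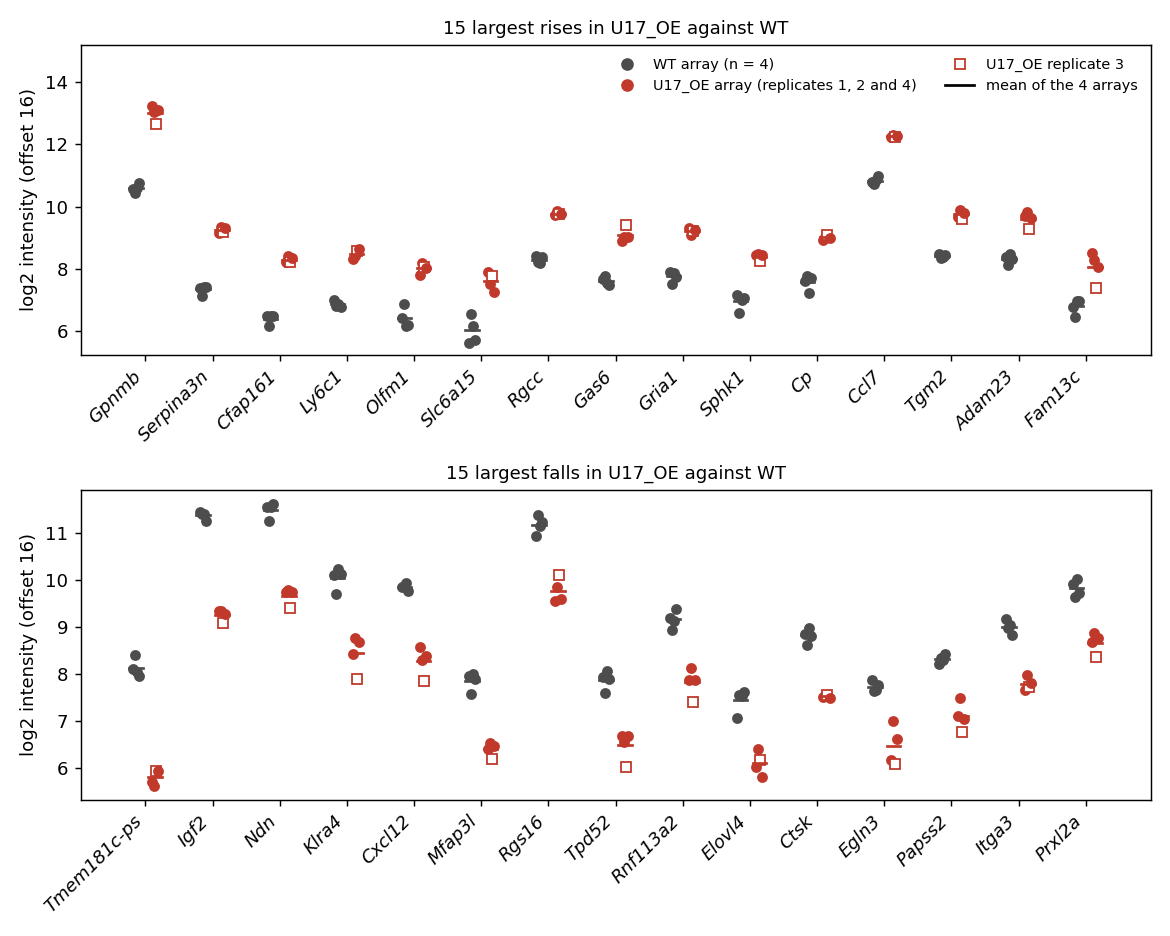
Log2 intensity (offset 16) of the 15 genes with the largest rises (upper plot) and the 15 with the largest falls (lower plot) among called genes detected on all 8 arrays. Grey points are the 4 WT arrays, red points the U17_OE arrays, the open square is U17_OE replicate 3, and bars are group means. The points of the groups are separate for each gene shown. Replicate 3 is the U17_OE array nearest to WT for several genes, among them Gpnmb (12.64) and Fam13c (7.40).

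Some genes were detected on all 4 arrays of one group and on none of the other, so that their change has only a bound. Among called genes, 21 were detected on 4 of 4 WT arrays and 0 of 4 U17_OE arrays, and 17 the other way round. Lpar4, a receptor for lysophosphatidic acid, read 7.77, 7.45, 7.94 and 7.87 in WT and was at least 4.64-fold lower in U17_OE. Epop, which acts with Polycomb complexes, was at least 3.96-fold lower, the proteoglycan gene Lum at least 2.87-fold, Acta1, skeletal muscle actin, at least 2.79-fold and E2f6, a repressor of the E2F family, at least 2.71-fold. In the other direction Tmem176b, a membrane protein of immune cells, read 7.36, 7.60, 7.33 and 7.58 in U17_OE and was at least 3.79-fold higher than in WT. Zfp704 was at least 2.6-fold higher, Sod3, the extracellular superoxide dismutase, at least 2.53-fold, the gene 4930486L24Rik at least 2.42-fold, the aldo-keto reductase gene Akr1c12 at least 2.4-fold and Zfp941 at least 2.0-fold. A bound is the brighter group's mean over, per array, the higher of the dim probe's value and the lowest detected value.

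The changes were not spread evenly over the genome. This was seen from runs of neighbouring called genes after their values were known, so it is a description without a test. On chromosome 12, 107 of 292 measured genes were lower (36.6%) and 2 were higher, against 6.37% lower among all genes. The median deviation of its genes from the WT mean was -0.24, -0.26, -0.31 and -0.28 on U17_OE arrays 1 to 4 and between -0.02 and 0.02 on the WT arrays. Chromosome 3 had 92 of 428 genes lower (21.5%) and medians of -0.17, -0.15, -0.22 and -0.21. Chromosome 10 went the other way, with 76 of 451 genes higher (16.9%), 7 lower and medians of 0.16, 0.18, 0.11 and 0.15. The U17_OE arrays were separate from the WT arrays on these 3 chromosomes, replicate 3 included.

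Placed in gene order and cut into 10 equal segments, chromosomes 3 and 12 had a median change below 0 in 10 of 10 segments and chromosome 10 above 0 in 10 of 10. The segments of chromosome 12 ran from -0.40 to -0.14, those of chromosome 3 from -0.24 to -0.16 and those of chromosome 10 from 0.08 to 0.23. Chromosome 6, with 57 of 452 genes lower (12.6%), was uneven: its first 6 segments ran from -0.22 to -0.10 and its last 4 from -0.04 to 0.0048. The medians of the other 16 chromosomes lay between -0.03 and 0.06, with 1.33 to 6.61% of genes lower and 4.17 to 10.7% higher. As a fold, the median gene of chromosome 12 was at 0.822 of its WT level, that of chromosome 3 at 0.872 and that of chromosome 10 at 1.12.

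Of all genes called lower, 44.1% lay on chromosomes 3, 6 and 12, which hold 12.9% of the measured genes. Of the 95 genes changed at least 2-fold, 31 (32.6%) lay on chromosomes 3, 6, 10 or 12, which hold 17.8% of the measured genes. Among the leading genes above, Cxcl12 and Klra4 (6), Ctsk and Tpd52 (3), Rnf113a2, Egln3 and E2f6 (12) and Lum (10) fell. Slc6a15 and Fam13c (10), Gpnmb and Tmem176b (6), Cp and Zfp704 (3) and Serpina3n (12) rose. The longest runs of neighbours called in 1 direction had 5 genes each, both on chromosome 12. The run Eipr1, Pxdn, Acp1, Sh3yl1 and Fam110c had changes of -0.31, -0.54, -0.51, -0.78 and -0.98. The run Pomt2, Gstz1, Tmed8, Vipas39 and Ahsa1, which spans enzymes of protein mannosylation (Pomt2) and tyrosine breakdown (Gstz1) and a cochaperone of HSP90 (Ahsa1), had -0.61, -0.36, -0.45, -0.56 and -0.34. Runs of 4 included Klhdc2, Nemf, Arf6 and Vcpkmt on chromosome 12, with -0.29, -0.33, -0.52 and -0.52, and Cd14, Tmco6, Ndufa2 and Ik on chromosome 18, higher by 0.52, 0.39, 0.29 and 0.29. Without U17_OE replicate 3, Klhdc2 and the genes Tmco6, Ndufa2 and Ik were no longer called. Off chromosomes 3, 6, 10 and 12, 790 of 7485 genes were called (10.6%), 473 higher and 317 lower. When each array's values were centred within chromosomes, 914 genes were called, 853 of them called before, and 19 of the 107 lower genes of chromosome 12 remained. This centring and the 4 chromosomes were chosen after the data were seen. Among all 9108 genes, 509 were higher and 405 lower after centring, to be set beside the list counts after centring below. List counts without U17_OE replicate 3 are to be set beside 9.94% higher and 9.69% lower among all genes. In the U17_KD clone, against the same WT arrays, chromosome 12 had a median of -0.30, chromosome 3 of 0.01 and chromosome 10 of -0.0015. The direct difference between the clones had a median of 0.02 on chromosome 12, -0.20 on chromosome 3 and 0.16 on chromosome 10. DNA copy number was not measured by these arrays.

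**Figure D3:**
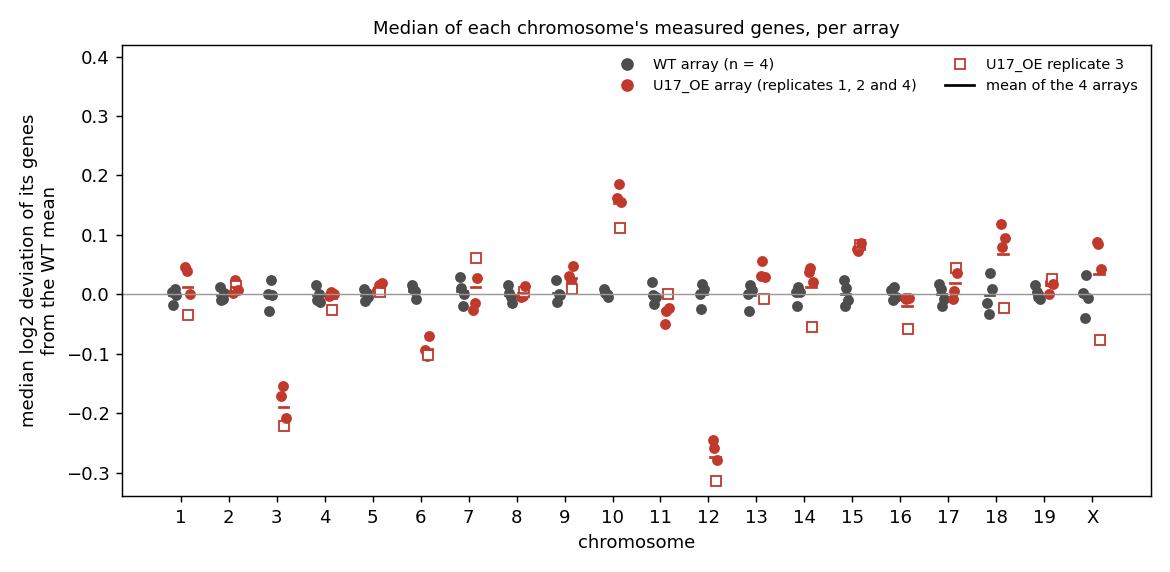
Median log2 deviation from the WT mean over the measured genes of each chromosome (horizontal axis), 1 point per array. Grey points are WT, red points U17_OE, the open square is U17_OE replicate 3 and bars are means of 4 arrays; U17_OE arrays lie from -0.31 to -0.24 on chromosome 12 and from 0.11 to 0.18 on chromosome 10.

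Several genes of glucose breakdown and of the hypoxia response were lower in the clone. Hypoxia-inducible factors bind the core letters ACGTG or GCGTG and raise glycolytic enzymes and their own hydroxylases. Of 15 measured genes of glucose uptake and glycolysis, 6 were lower and 0 higher, with a median change of -0.25, against 6.37% lower and a median of -0.0058 among all genes. Of 21 other hypoxia targets, 8 were lower and 0 higher, with a median of -0.17. Without U17_OE replicate 3 the counts were 8 lower and 1 higher, and 9 lower and 0 higher. Of the 14 genes that fell, 4 lie on chromosomes 3, 6, 10 or 12, and after centring within chromosomes the counts were 5 and 9 lower.

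Pdk1, the kinase that turns pyruvate away from mitochondria, read 9.78, 9.84, 9.84 and 9.80 in WT and 9.26, 9.31, 9.17 and 9.13 in U17_OE, and fell by 0.60 ± 0.08 SE (limma, adjusted p = 5.42e-05). Its other kept probe was not called. Pgam1, phosphoglycerate mutase, read 12.31, 12.20, 12.09 and 12.16 in WT and 11.70, 11.75, 11.81 and 11.74 in U17_OE, and fell by 0.44 ± 0.08. Ldha, lactate dehydrogenase, fell by 0.32, the phosphofructokinase subunit Pfkl by 0.37, Pgk1, phosphoglycerate kinase, by 0.27 and Tpi1, triosephosphate isomerase, by 0.26. In these enzymes all 4 U17_OE arrays lay below all 4 WT arrays. The glucose transporter gene Slc2a1 had -0.31 (adjusted p = 0.0508) and Gapdh -0.07, and neither passed.

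Among the other hypoxia targets, Egln3, an oxygen-sensing hydroxylase, read 7.87, 7.64, 7.66 and 7.77 in WT and from 6.08 (replicate 3) to 7.0 (replicate 2) in U17_OE, without overlap, and fell by 1.26 ± 0.16; it lies on chromosome 12, and its change was -0.98 after centring. Egln1, of the same family, fell by 0.70 ± 0.16 with both of its other probes called lower. Its values overlapped between the groups, since U17_OE replicate 3 read 7.18 and WT replicate 1 read 7.10. Plod2, a collagen lysyl hydroxylase, read 8.56, 8.75, 8.64 and 8.83 in WT and 7.74, 7.84, 8.01 and 7.83 in U17_OE, and fell by 0.84 ± 0.11. Ak4, a mitochondrial adenylate kinase, fell by 0.71, the histone demethylase gene Kdm3a by 0.41 and P4ha2, a collagen prolyl hydroxylase, by 0.34. Vegfa, the angiogenic growth factor, had -0.28 (adjusted p = 0.0866) and the factor subunit Hif1a -0.07 (adjusted p = 0.844). Egln1 and Egln3 were counted with these targets and not with the list of HIF subunits and oxygen sensing. Of the 7 measured genes of that list, 0 were lower and 1 was higher, Os9 at 0.48, while the hydroxylase gene Egln2 had -0.04. Mgarp read 7.65, 7.24, 7.78 and 7.74 in WT and 5.93, 5.53, 5.14 and 5.24 in U17_OE and had a change of -2.14 ± 0.16, with 1 of 4 U17_OE arrays at the detection level.

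Promoters of genes that fell were searched in the 250 bases before the RefSeq start. The letters ACGTG or GCGTG, on either strand, stood in 12 of 13 lower hypoxia and glycolysis genes that have a promoter in the table. They stood in 62.8% of 7455 measured genes with a promoter, so the motif is common. Genes listed for hypoxia may carry it whether or not they changed, and no share is given for the uncalled members. Those of Pgam1 and Pdk1 are shown because every U17_OE array lay below every WT array, and that of Egln3 because its change was the largest of the list, with matches in capitals (build GRCm38.p6, RefSeq). The window of Pgam1 is chr19:41911621-41911870 on the plus strand, that of Pdk1 chr2:71872974-71873223 on the plus strand and that of Egln3 chr12:54203875-54204124 on the minus strand.
Pgam1: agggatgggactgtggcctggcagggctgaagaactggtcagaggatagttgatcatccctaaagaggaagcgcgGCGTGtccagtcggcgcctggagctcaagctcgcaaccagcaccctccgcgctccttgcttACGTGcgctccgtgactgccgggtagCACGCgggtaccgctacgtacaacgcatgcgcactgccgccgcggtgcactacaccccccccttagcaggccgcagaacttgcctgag
Pdk1: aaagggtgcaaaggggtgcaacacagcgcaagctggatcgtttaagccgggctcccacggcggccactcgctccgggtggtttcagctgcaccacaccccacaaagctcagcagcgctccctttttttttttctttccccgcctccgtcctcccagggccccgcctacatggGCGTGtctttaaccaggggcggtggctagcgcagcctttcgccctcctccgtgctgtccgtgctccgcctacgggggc
Egln3: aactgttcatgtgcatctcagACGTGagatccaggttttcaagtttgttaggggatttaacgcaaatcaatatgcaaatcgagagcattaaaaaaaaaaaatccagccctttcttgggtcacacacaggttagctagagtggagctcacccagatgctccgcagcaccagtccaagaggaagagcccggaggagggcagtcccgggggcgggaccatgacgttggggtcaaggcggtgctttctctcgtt
A match is a sequence of letters and was not tested for binding. Pgam1 holds 3 matches, and Pdk1 and Egln3 1 each.

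Some amino acid stress genes were lower as well. ATF4 is the transcription factor that raises amino acid synthesis and transport when amino acids run short, through elements with the letters TGATGNAA. Of 18 measured ATF4 targets and serine and glycine synthesis genes, 10 were lower and 0 higher (median -0.29), and of 19 aminoacyl-tRNA synthetases 5 were lower and 0 higher (median -0.15), against 6.37% lower among all genes. Of the lower genes, 4 of the 10 and 3 of the 5 lie on chromosomes 3, 6, 10 or 12. After centring within chromosomes, 9 and 3 were lower. Without U17_OE replicate 3, 11 and 6 were lower.

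Trib3, a pseudokinase that feeds back on ATF4, read 10.53, 10.31, 10.77 and 10.63 in WT and 10.12, 9.86, 9.50 and 9.81 in U17_OE, and fell by 0.74 ± 0.12 SE (limma, adjusted p = 0.000507). Mthfd2, the mitochondrial folate enzyme, read 13.13, 12.90, 13.19 and 13.14 in WT and 12.53, 12.56, 12.18 and 12.43 in U17_OE, and fell by 0.67 ± 0.09. Asns, asparagine synthetase, read 12.69, 12.62, 12.87 and 12.82 in WT and 12.40, 12.36, 12.13 and 12.23 in U17_OE, and fell by 0.47 ± 0.08. The groups did not overlap for these 3 genes, and replicate 3 was the lowest U17_OE array in each. Aldh18a1, of proline synthesis, fell by 0.51, Chac1, which breaks down glutathione, by 0.42, Phgdh, the first enzyme of serine synthesis, by 0.41 and Shmt2, which makes glycine from serine, by 0.30. The cystine transporter gene Slc7a11, on chromosome 3, fell by 1.01 ± 0.16 and its change was -0.82 after centring. Its 2 other probes were not called, with -0.21 and 0.01. Of 15 amino acid transporters measured, 3 were higher and 2 lower, against 6.48% higher and 6.37% lower among all genes. Atf4 had -0.11 and Ddit3, the stress factor CHOP, 0.24, and neither passed.

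The letters TGATGNAA, on either strand, stood in the 250 bases before the start of 4 of 13 lower ATF4 targets and synthetases with a promoter in the table, against 2.39% of measured genes. They were those of Asns, Chac1, Nupr1 and Gars. Listed ATF4 targets may carry these letters whether or not they changed here. No share is given for the uncalled members, so the contrast with all genes is no test of these changes. Asns and Chac1 are shown since every U17_OE array lay below every WT array for both, with the match in capitals (RefSeq, GRCm38.p6). The window of Asns is chr6:7693210-7693459 on the minus strand and that of Chac1, with its match on the other strand, chr2:119350992-119351241 on the plus strand.
Asns: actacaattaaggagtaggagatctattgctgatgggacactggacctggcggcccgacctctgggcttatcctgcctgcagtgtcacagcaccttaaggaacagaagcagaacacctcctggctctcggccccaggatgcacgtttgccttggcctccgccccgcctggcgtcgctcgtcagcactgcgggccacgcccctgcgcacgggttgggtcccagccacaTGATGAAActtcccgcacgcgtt
Chac1: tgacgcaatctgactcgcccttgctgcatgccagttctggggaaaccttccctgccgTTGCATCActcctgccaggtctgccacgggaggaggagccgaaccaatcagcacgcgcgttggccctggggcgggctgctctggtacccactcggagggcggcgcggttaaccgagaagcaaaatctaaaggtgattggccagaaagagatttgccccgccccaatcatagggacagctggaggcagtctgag

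Several cholesterol synthesis genes were higher, in cells of both groups held without lipoproteins. Of 4 measured genes of the mevalonate arm, 3 were higher and 0 lower (median 0.52), and of 10 genes from squalene to cholesterol, 4 were higher and 0 lower (median 0.26), against 6.48% higher among all genes. The counts were 4 and 4 higher after centring within chromosomes, and 3 and 5 without U17_OE replicate 3. Mvk, mevalonate kinase, read 8.04, 7.90, 7.88 and 8.08 in WT and 8.76, 9.05, 9.56 and 9.04 in U17_OE, a rise of 1.13 ± 0.13 SE (limma, adjusted p = 1.12e-05). Replicate 3 was its highest array, and the rise without it was 0.97. Mvd, the decarboxylase of the arm, read 10.83, 10.83, 10.63 and 10.78 in WT and 11.21, 11.17, 11.53 and 11.28 in U17_OE, and rose by 0.53 ± 0.09. Pmvk, phosphomevalonate kinase, rose by 0.52 with replicate 3 and by 0.36 without it.

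Of the later steps, Dhcr7, the last reductase of the pathway, read 6.86, 7.10, 6.66 and 7.09 in WT and 7.44, 7.53, 7.85 and 7.55 in U17_OE, and rose by 0.66 ± 0.13. Lss, lanosterol synthase, rose by 0.57 at this probe, and its other kept probe was not called. Ebp, a sterol isomerase, rose by 0.49 and Nsdhl, a sterol dehydrogenase, by 0.36. Sqle, squalene epoxidase, had 0.20 and Hsd17b7 0.33, and neither passed. Of 8 measured genes of the control of SREBP, a transcription factor of cholesterol synthesis genes, 0 passed either way. Srebf2 had 0.06 and Insig1 0.29 (limma, adjusted p = 0.0718). Without U17_OE replicate 3, 1 of the 8 was higher and 1 lower. The sterol element letters TCACNCCAC stood in the 250 bases before the start of 0 of the 7 higher genes and of 1.07% of measured genes. Of 14 genes of cholesterol trafficking and efflux, 3 were higher and 1 lower (median -0.02), against 6.48% higher and 6.37% lower among all genes. After centring 2 were higher and 1 lower. Lipa, the lysosomal lipase that frees cholesterol, rose by 0.52 (0.10 at its other probe, which did not pass). Stard5, a START domain protein, rose by 0.46 (0.29 at its other probe, which did not pass). Tspo rose by 0.26 and was not called after centring, while the lipoprotein receptor gene Vldlr fell by 0.77. The lysosomal cholesterol transporter gene Npc1 had -0.13 and did not pass.

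Many enzymes that clear aldehydes and electrophiles were higher. Of 30 measured genes of glutathione, aldehyde and NRF2 function, 14 were higher, 3 lower and 13 did not pass (median 0.19), against 6.48% higher and 6.37% lower among all genes, with the same counts after centring and without U17_OE replicate 3. Of the 14, 6 lie on chromosomes 3, 6, 10 or 12. Aldh3a1, an aldehyde dehydrogenase, read 5.54, 5.60, 5.83 and 5.60 in WT and 7.12, 7.55, 7.30 and 7.61 in U17_OE, and rose by 1.75 ± 0.14 SE (limma, adjusted p = 7.99e-08), detected on 3 of 4 WT arrays. Mgst1, a membrane glutathione transferase, read 9.90, 9.64, 9.85 and 10.02 in WT and 10.80, 10.80, 10.70 and 10.76 in U17_OE, and rose by 0.91 ± 0.09. Mgst2 rose by 0.99, Mgst3 by 0.66, Gstm2 by 0.50, the aldo-keto reductase gene Akr1c18 by 0.76 and Cbr1, carbonyl reductase, by 0.62. Gstt1, called with a change of 1.01, was detected on 1 of 4 WT arrays. Members of the Gstm and Akr1c families are near copies of each other, so their probes may share transcripts.

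The members that fell were others than the transferases. Hmox1, haem oxygenase, read from 10.99 to 11.08 in WT, from 9.88 to 10.02 on 3 U17_OE arrays and 10.48 on replicate 3, and fell by 0.94 ± 0.11. Replicate 3 was the nearest to WT, and the groups did not overlap. Gclm, a subunit of the enzyme that limits glutathione synthesis, read 10.56, 10.47, 10.66 and 10.54 in WT and 9.95, 9.89, 9.94 and 9.82 in U17_OE, and fell by 0.66 ± 0.08. Srxn1, sulfiredoxin, fell by 0.41 at this probe and its 2 other probes were not called. Nqo1, a well known target of NRF2, had 0.20 and Nfe2l2, the gene of NRF2, 0.13, and neither passed.

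Of 47 measured respiratory chain subunits, 9 were higher and 0 lower (median 0.19), against 6.48% higher among all genes. The 9 included Ndufs7, of complex I, at 0.43, Uqcrh, of complex III, at 0.27 and Cox6c, of complex IV, at 0.52. After centring within chromosomes 4 were higher and 1 lower, and 3 of the 9 lie on chromosomes 3, 6, 10 or 12. Ppargc1a, a coactivator known for mitochondrial biogenesis, read 6.79, 6.81, 6.61 and 6.18 in WT and 8.04, 7.81, 7.61 and 7.91 in U17_OE, and rose by 1.25 ± 0.14. It was chosen after its values were seen. Of 35 listed cytosolic ribosomal protein genes, 1 was higher (Rps15, 0.41), a share below that of all genes, and 0 lower. Rps15 is among the genes of chromosomes 3, 6, 10 and 12, and after centring 1 gene of the list was higher. Rps26, which the list leaves out, was called higher too.

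Part of the machinery in which U17 works was lower. Of 38 measured snoRNP and rRNA processing genes, 8 were lower and 0 higher (median -0.12), against 6.37% lower among all genes, and 4 of the 8 lie on chromosomes 3, 6, 10 or 12. After centring, 4 were lower. Without U17_OE replicate 3 the counts were 11 lower and 1 higher, against 9.69% lower and 9.94% higher among all genes then. Ncl, nucleolin, read 11.01, 10.93, 11.24 and 11.09 in WT and 10.87, 10.81, 10.35 and 10.66 in U17_OE, and fell by 0.40 ± 0.11 with its other probe not called. Heatr1, of the small subunit processome, fell by 0.37, Mybbp1a, a nucleolar protein, by 0.31, Gar1, a core protein of H/ACA particles, by 0.28 and Wdr3 by 0.60. The H/ACA proteins Nhp2 (-0.05) and Nop10 (0.18) did not pass. Rcc1, the gene next to Snhg3 and the exchange factor of the GTPase Ran, read 9.63, 9.26, 9.56 and 9.70 in WT and 9.22, 9.37, 9.23 and 9.44 in U17_OE, with overlap and a change of -0.22 (adjusted p = 0.183). No probe was named for Snhg3, Snora73a or Snora73b, so the level of U17 was not checked here. Of the globin genes, whose name the construct carries, Hbb-bh1 fell by 1.14 and Hbb-bs had -0.22 and did not pass.

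Proliferation genes moved in part. Of 25 measured genes of DNA replication and S phase, 5 were lower and 0 higher (median -0.15), against 6.37% lower among all genes. After centring 5 were lower, and without U17_OE replicate 3, 8 were lower, against 9.69% lower among all genes then. Rrm2, a subunit of ribonucleotide reductase, fell by 0.79, Ccne1, cyclin E1, by 0.53, Mcm2, of the replicative helicase, by 0.49, E2f1 by 0.43 and Mcm10 by 0.31. Of 18 genes of mitosis, near the share of all genes, 1 was lower (Top2a, -0.46) and 1 higher (Kif23, 0.39), with no other probe of either gene called. Of 23 regulators of G1 and p53 targets, 4 were higher and 1 lower, against 6.48% higher and 6.37% lower among all genes. Without U17_OE replicate 3, 4 were higher and 3 lower, against 9.94% higher and 9.69% lower among all genes then. After centring 2 were higher and 1 lower, and 2 of the 4 higher genes lie on chromosomes 3, 6, 10 or 12. Fas, the death receptor, read 7.24, 6.85, 7.14 and 6.82 in WT and 8.04, 8.29, 7.88 and 8.01 in U17_OE, and rose by 1.04 ± 0.12, while Ccnd1, cyclin D1, fell by 0.31 and the p53 target Cdkn1a had -0.03.

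Of 15 measured chemokine, cytokine and acute-phase genes, 5 were higher and 2 lower, against 6.48% higher and 6.37% lower among all genes. The neighbouring chemokine genes of chromosome 11 were among the risers. Ccl7 read 10.80, 10.71, 10.84 and 10.98 in WT and 12.23, 12.31, 12.25 and 12.25 in U17_OE, and rose by 1.43 ± 0.08 SE (limma, adjusted p = 5.16e-10). Ccl9 rose by 0.86, and Ccl2, which draws monocytes, by 0.64. Ccl8, called with a change of 0.66, was detected on 1 of 4 WT arrays. Csf1, the growth factor of macrophages, fell by 0.93 beside Cxcl12, and lies on chromosome 3. Of 13 interferon-stimulated genes, 3 were higher and 0 lower, with Ifitm3 at 0.95, Isg15 at 0.64 and Stat2 at 0.50. The counts were 3 higher without U17_OE replicate 3 and 2 higher after centring. Stat2, on chromosome 10, was called in neither.

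Matrix genes moved in both directions, to be read against 6.48% higher and 6.37% lower among all genes. Of 10 collagen genes 2 were higher and 0 lower, Col6a2 at 0.67 and Col6a1 at 0.49, both on chromosome 10, and 1 was higher after centring. Without U17_OE replicate 3, 4 were higher, against 9.94% higher among all genes then. Of 5 small leucine-rich proteoglycans, Prelp rose by 1.12 and Dcn, decorin, by 0.61, while Lum was lower and Bgn fell by 0.31. Dcn read 12.08, 11.95, 12.16 and 12.04 in WT and 12.72, 12.76, 12.57 and 12.63 in U17_OE. Of 19 matricellular genes 4 were higher and 4 lower, the 4 lower ones all on chromosomes 3, 6, 10 or 12, and after centring 3 were higher and 2 lower. Srpx2, a secreted sushi-repeat protein, rose by 2.25 with both of its other probes called higher. Fbln2, fibulin 2, read 13.06, 13.50, 12.93 and 12.91 in WT and 11.84, 11.84, 12.41 and 11.86 in U17_OE, and fell by 1.11 ± 0.13; its change without replicate 3 was -1.26. Tgfbi, a matrix protein induced by TGF-beta, was at least 2.43-fold lower, detected on 0 of 4 U17_OE arrays. Of 14 matrix proteases and inhibitors, 5 were higher and 3 lower, with Timp3 at 0.54 (its other probe was not called) and Mmp2 at 0.41 against Ctsk, Plaur (-0.71), the urokinase receptor, and Plau (-0.45), urokinase itself.

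Of 24 axon guidance and adhesion genes, 7 were lower and 1 higher, against 6.37% lower and 6.48% higher among all genes, and without U17_OE replicate 3, 5 were lower and 3 higher. Flrt3, an adhesion molecule of the FLRT family, read 7.77, 7.48, 8.01 and 7.90 in WT and 5.67, 6.56, 5.23 and 6.18 in U17_OE, with 3 of 4 detected, and fell by 1.88 ± 0.22. Its relative Flrt2, on chromosome 12, fell by 1.07, Ncam1 by 0.68 and Vcam1 by 0.61, while the netrin receptor gene Unc5b rose by 0.80. None of the 3 other probes of Ncam1 was called. Of 26 genes of ERK feedback and growth factors, 5 were lower and 2 higher, against 6.37% lower and 6.48% higher among all genes. Without U17_OE replicate 3, 6 were lower and 6 higher, against 9.94% higher and 9.69% lower among all genes then. Dusp5, a phosphatase of ERK, fell by 1.14, Met, the receptor of hepatocyte growth factor, by 0.74 and Hbegf by 0.66, and Hgf, the ligand of Met, rose by 0.82. Of 13 imprinted genes 5 were lower and 0 higher, against 6.37% lower among all genes. After centring 4 were lower, and without U17_OE replicate 3, 6 were lower, against 9.69% lower among all genes then. Besides Igf2 and Ndn they were Peg13 (-0.92, detected on 1 of 4 U17_OE arrays), Grb10 (-0.37) and Peg3 (-0.35), while Dlk1 (-0.18) and Igf2r (-0.23) did not pass. Of 19 actin and contractile genes 5 were lower and 3 higher, against 6.37% lower and 6.48% higher among all genes. Of these, 2 of the lower and 1 of the higher lie on chromosomes 3, 6, 10 or 12, and after centring 4 were lower and 3 higher. Without U17_OE replicate 3, 7 were lower and 3 higher, against 9.69% lower and 9.94% higher among all genes then. Acta2, smooth muscle actin, had -0.55 and its relative Actg2 1.07.

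**Figure D4:**
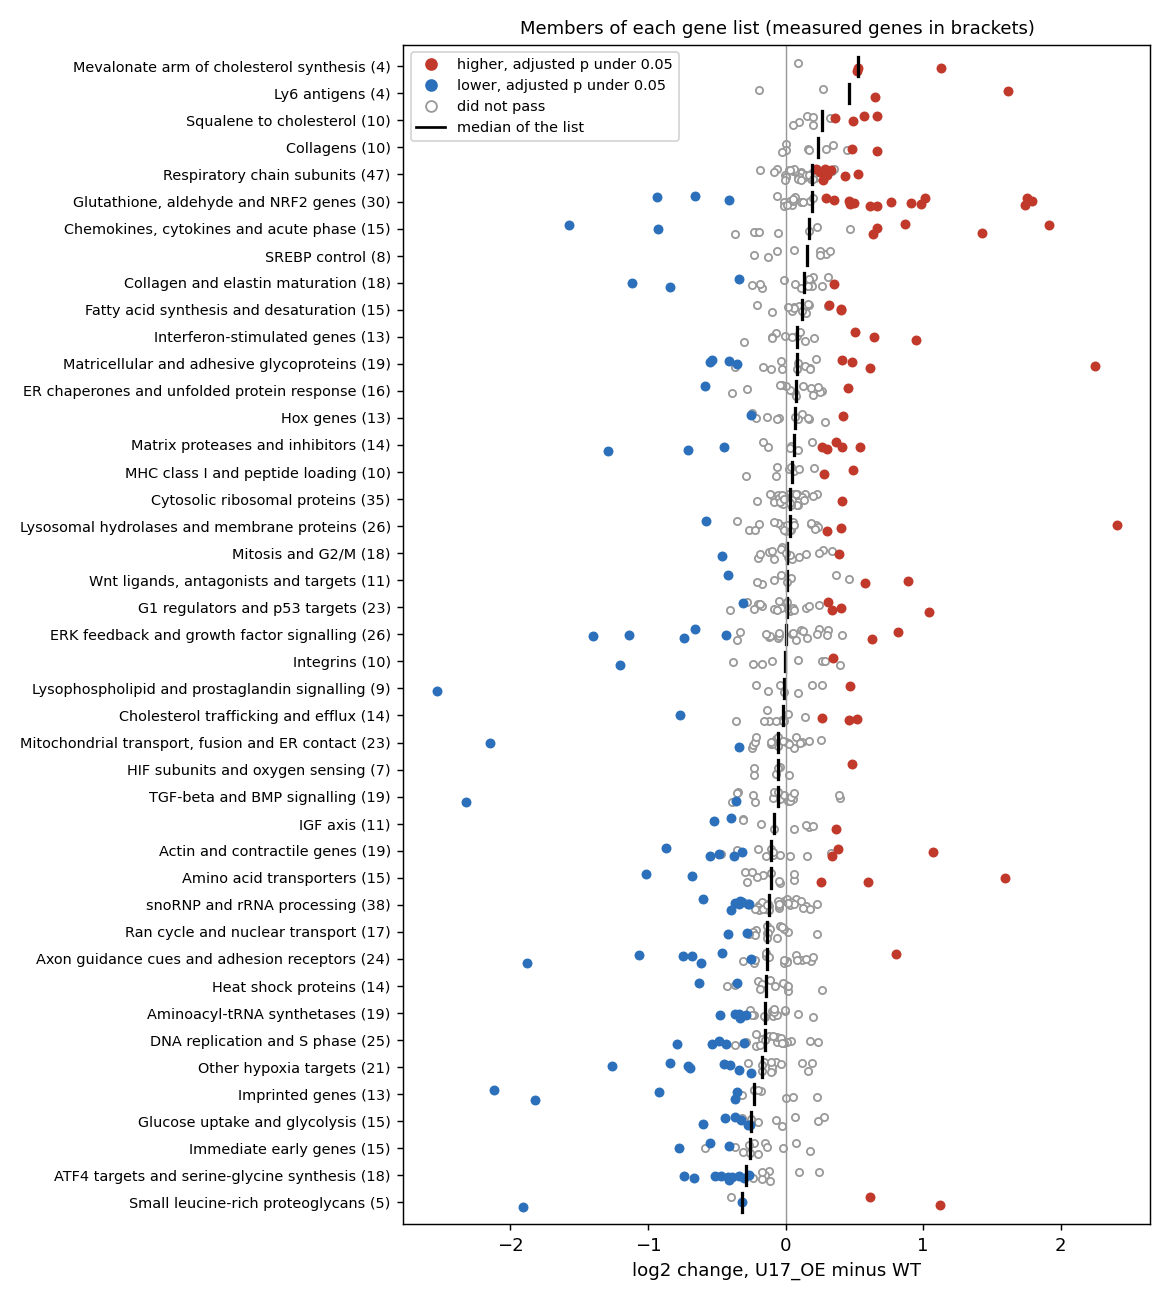
Log2 change, U17_OE minus WT, of the measured members of each gene list with 4 or more of them (horizontal axis); red points are called higher, blue points called lower, open points did not pass and black bars are list medians. The mevalonate list has the highest median (0.52) and the ATF4 list (-0.29) lies near the lower end, with 10 of 18 members called lower.

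U17_OE replicate 3 decided many calls near the threshold. It was the highest or lowest array of its group for 72.5% of genes. It lay more than 1 log2 unit above its 3 group mates for 26 genes and below them for 106, whereas the other U17_OE arrays did so for 1 to 5 genes each way. Leaving it out added 690 calls and removed 72. The genes added had a median size of change of 0.36, and 0.87 was the largest of them. Among them Vamp7, of vesicle fusion, read 8.27, 8.48, 6.41 and 7.85 in U17_OE and its change was 0.32 with the array and 0.77 without it. Amotl2, a target of YAP, read 7.34, 7.31, 8.76 and 7.47, with a change of -0.39 with it and -0.74 without it.

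The other genes added with the largest changes were Prl2c1, Mtrf1l, Rassf8, Acbd5 and Cyp3a13, higher by 0.87, 0.85, 0.80, 0.78 and 0.77 without the array. Those added as lower were Mta1, Wdr47, Sh2d6, Prr5l and Xrcc3, with -0.83, -0.78, -0.76, -0.75 and -0.71. Mta1 and Xrcc3 lie on chromosome 12. Alcam (-0.75), Maml1 (-0.66), Igsf8 (0.64) and Tle2 (0.62) were called only with the array. Of these genes, Igsf8 was detected on 1 of 4 WT arrays, Mtrf1l on 2 of 4, and Maml1 and Sh2d6 each on 2 of 4 U17_OE arrays. Among called genes, the array lay farthest above its mates for Inf2 (by 0.89) and Slc27a1 (by 0.87) and farthest below for Ppm1h (a difference of -0.96) and Pcdh7 (-0.92). The formin gene Inf2 read 9.08, 9.11, 10.01 and 9.17 against 9.86 to 10.20 in WT, so that replicate 3 alone lay within the range of WT.

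**Figure D5:**
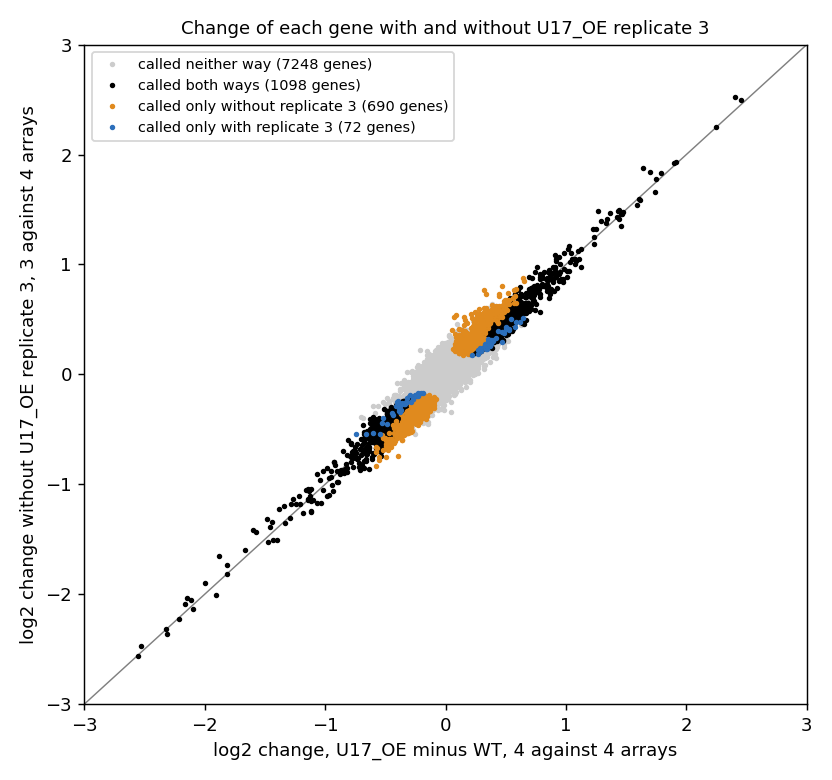
Log2 change of each gene with all 4 U17_OE arrays (horizontal axis) and without replicate 3 (vertical axis), against 4 WT arrays; the line marks equal values. Black points are the 1098 genes called both ways, orange points the 690 called only without replicate 3 and blue points the 72 called only with it, and the orange points lie farther from 0 on the vertical axis.

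The direct comparison of the clones tests whether the change in U17_OE differs from that in U17_KD. In it 1506 of 9108 genes were higher in U17_OE than in U17_KD (16.5%) and 1506 were lower (16.5%). Each clone's own change from WT rests on the same WT arrays and is given only beside the test. Among genes called in U17_OE minus WT, 6 genes each way were taken by the fitted difference, and those not detected in one clone have only a bound. Tmem181c-ps (-3.31) and Lmcd1 (-3.38, detected on 3 of 4 U17_OE arrays) were lower in U17_OE, and Mgarp (-3.76) too, detected there on 1 of 4 arrays. Lpar4, Tmem181a and Stc1, detected on 0 of 4 U17_OE arrays, were at least 6.17-fold, 4.97-fold and 4.79-fold lower than in U17_KD. Tenm4 (2.89) and Dkk3 (2.83, detected on 3 of 4 U17_KD arrays) were higher in U17_OE, as was Bnc1 (3.37), detected on 1 of 4 U17_KD arrays. Smoc1, Actg2 and Slc6a15, detected on 0 of 4 U17_KD arrays, were at least 7.07-fold, 6.36-fold and 4.21-fold higher than there. For some of these the larger change from WT was that of U17_KD. Smoc1, a matrix-associated protein, had -0.53 in U17_OE and was at least 10.2-fold lower than WT in U17_KD. Actg2, smooth muscle gamma actin, had 1.07 in U17_OE and was at least 3.02-fold lower than WT in U17_KD. Stc1, stanniocalcin, was at least 1.54-fold lower than WT in U17_OE and had 1.64 in U17_KD.

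By list, glycolysis had 12 of 15 genes lower and 0 higher in U17_OE than in U17_KD, and the other hypoxia targets 13 of 21 lower and 2 higher, against 16.5% each way among all genes. Pfkl had -0.37 in U17_OE and 0.28 in U17_KD, and the difference between the clones was -0.64 (limma, adjusted p = 7.6e-06). For Tpi1 the difference was -0.57. The snoRNP and rRNA processing list had 24 of 38 higher and 1 lower in U17_OE than in U17_KD. Its median change from WT was -0.12 in U17_OE and -0.45 in U17_KD, so the list median was below WT in both clones. No gene of the mevalonate arm passed either way, and of the squalene list 3 were higher and 1 lower, Mvd having 0.53 in both clones.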

How the data were processed

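Probe levels were measured on 12 one-colour bead arrays, with oligo-dT priming and a biotin label, per the labels. The intensities used are those the authors deposited in their value table, background-subtracted and nearly equal in their quartiles; the submitters' processing notes name GenomeStudio 2010, and how arrays were normalized is not stated there. The table held 45281 probes, and 37.7% of values were below 0. The scanner table the authors deposited, with an intensity and a detection p-value per probe, was used only for the 4 WT arrays, whose column names match the labels; 40 of its columns were not used.

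The background (mean 0.492, SD 15.8) and the level at which a detection p-value reaches 0.05 (30.5) were read from those deposited p-values. Values then passed through normexp with that background, an offset of 16 was added and log2 was taken. Detection calls rebuilt from this level disagreed with the deposited ones for 0.155 to 1.51% of probes. Probes detected on at least 4 of 12 arrays were kept, 16706 of them, and 14181 of these carry 1 gene symbol in the platform annotation, for 9108 genes. Of all probes, 34885 had 1 symbol, 18 several and 10378 none; 34807 matched RefSeq and 0 symbols changed.

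Limma 3.58.1 in R 4.3.3 fitted the 12 arrays with 3 group means (9 residual degrees of freedom), empirical Bayes with a mean-variance trend, and Benjamini-Hochberg adjustment over all kept probes. Figures and lists were made in Python 3.11.15. The fit was tested on simulated data.

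Gene groups, the named genes and the arrays compared were chosen with earlier results of these data known. Named genes were the 15 largest rises and 15 largest falls detected on all 8 arrays, the 6 largest bounds each way, up to 4 called and 2 well known uncalled members of each list, the construct's and study's genes, the 8 genes farthest above and below on U17_OE replicate 3, the largest of those it decided (6 each way and 4), the longest runs of neighbours and the 6 largest differences between the clones each way. Other members of a group are named as examples and were chosen after their values were seen. Alternatives covered background, offset, normalization, filter, arrays in the fit, array weights, the variance trend, the replicate block, the probe of a gene, and each array left out in turn.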

Additional observations from a re-analysis of the deposited data

Results flagged for a closer look

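Single arrays that stood apart from the other 3 of their group were sought with Dixon's ratio at its critical value for 4 arrays among the named genes in U17_OE and WT. There were 32 such values in 416 groups, 7.69%, where chance alone gives about 1 in 20. Some of the named genes were chosen because U17_OE replicate 3 stands apart in them, so neither this share nor that array's count can be read against chance. U17_OE replicate 3 held 14 of them and WT replicate 2 held 9, and the other 6 arrays held 1 to 3 each.

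On U17_OE replicate 3 the log2 intensity was low for Sphk1 (8.24, others 8.43 to 8.47), Ndn (9.41, others 9.73 to 9.79), Sel1l (8.08, others 8.68 to 8.76), Dkk3 (8.06, others 8.67 to 8.70), Rrm2 (9.43, others 10.02 to 10.08), Pomt2 (8.92, others 9.25 to 9.27) and Nemf (8.66, others 8.82 to 8.85). On the same array it was high for Pmvk (9.61, others 8.95 to 9.06), Fbln2 (12.41, others 11.84 to 11.86), Rps15 (14.69, others 14.44 to 14.47), Inf2 (10.01, others 9.08 to 9.17), Mpv17l2 (11.47, others 10.72 to 10.83), Amotl2 (8.76, others 7.31 to 7.47) and Ik (10.79, others 10.50 to 10.53). Among these are an enzyme of cholesterol synthesis (Pmvk), a subunit of ribonucleotide reductase (Rrm2) and genes of the chromosome 12 runs (Pomt2, Nemf).

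WT replicate 2 was low for Serpina3n (7.13, others 7.39 to 7.43), Cfap161 (6.17, others 6.48 to 6.49), Scarb2 (8.23, others 8.40 to 8.43), Lpl (9.21, others 9.59 to 9.64) and Cytip (9.99, others 10.23 to 10.28). It was high for Aldh18a1 (11.17, others at most 11.02), Grb10 (13.04, others 12.68 to 12.74), Top2a (11.87, others 11.45 to 11.48) and Mxra8 (10.22, others 9.68 to 9.76).

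WT replicate 1 stood apart for Tmem181a (7.41, others 7.33 to 7.34). WT replicate 3 stood apart for Plaur (9.78, others 9.55 to 9.58) and Ly6e (10.43, others 10.74 to 10.77). WT replicate 4 stood apart for Irs2 (10.17, others 10.32 to 10.33). U17_OE replicate 1 stood apart for Lipa (7.65, others 8.26 to 8.35), Gars (14.64, others 14.44 to 14.47) and Heatr1 (11.76, others 11.62 to 11.64). U17_OE replicate 2 stood apart for Plaur (9.26, others 8.78 to 8.80). U17_OE replicate 4 stood apart for Vcpkmt (8.17, others 7.71 to 7.76).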

How the results depend on the processing

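With the U17_OE and WT arrays alone in the fit, which leaves 6 residual degrees of freedom, 1193 probes were called in place of 1925 (625 higher and 568 lower), and 738 genes in place of 1170. Leaving out 1 array gave 1261 to 2981 probes, 667 to 1485 higher and 594 to 1496 lower, and 790 to 1788 genes. The lowest of each came without U17_OE replicate 4 and the highest without U17_OE replicate 3. Probes changed at least 2-fold numbered 152, but 91 with normexp fitted to each array, 275 with no normexp and 84 with an offset of 50, and 149 to 162 with 1 array left out. The replicate block gave 1398 probes; same-numbered samples had deviations correlated by -0.21, -0.28, -0.38 and 0.089, so the numbers share no more than a name. Centring within chromosomes, chosen after seeing the data, gave 1525 probes. No sign of a named gene turned over in 21 settings; 123 of the 194 called ones were called in every setting and 71 lost the call in at least 1, 45 of them with the 8 arrays alone. A block for slide or scan was not run, since the headers name neither.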

Other observations

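Members of further signalling and stress groups are to be read against 6.48% higher and 6.37% lower among all genes. Of 11 measured Wnt genes, 2 were higher and 1 lower. The secreted antagonist Sfrp1 read 7.05, 7.39, 6.99 and 7.15 in WT and 7.88, 7.77, 8.20 and 8.29 in U17_OE. It rose by 0.89 ± 0.15 (SE, limma), with its other probe called higher. Dkk3, named for the same class, rose by 0.58 and the ligand gene Wnt5a fell by 0.42. Of 15 immediate early genes, 3 were lower and 0 higher, against 6.37% lower among all genes. Without U17_OE replicate 3, 7 were lower, against 9.69% lower among all genes then. Ier3, a stress-induced survival gene, read 13.41, 13.29, 13.50 and 13.43 in WT and 12.59, 12.70, 12.60 and 12.66 in U17_OE, the groups being separate, and fell by 0.77 ± 0.07. Of 14 heat shock genes, Hsp90aa1 (-0.63, on chromosome 12 and not called after centring) and Dnajb1 (-0.36) were lower. Of 16 genes of ER folding, Xbp1, a factor of the unfolded protein response, rose by 0.45. Sel1l, of ER-associated degradation, fell by 0.59 and was not called after centring. Its other kept probe had -0.06 and was not called.

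The counts of these smaller groups are to be read against 6.48% higher and 6.37% lower among all genes. Of 11 genes of the insulin-like growth factor axis besides Igf2, the protease gene Pappa fell by 0.52, Irs2, an adaptor of insulin signalling, by 0.40, and the binding protein gene Igfbp6 rose by 0.36. Of 15 genes of fatty acid synthesis, 3 were higher and 0 lower. With U17_OE replicate 3 left out, 5 were higher, against 9.94% higher among all genes then. The 3 called with all arrays were the acyl-CoA ligase gene Acsl3 (0.41), Acss2 (0.40, not called after centring) and the desaturase gene Scd1 (0.31). Of 26 lysosomal genes, the membrane protein gene Scarb2 (0.40) and the protease gene Ctsl (0.30) were higher beside Gpnmb, and Idua, which degrades glycosaminoglycans, had -0.58. Of 10 genes of MHC class I, B2m (0.28) and Tapbp (0.49) were higher. The other kept probe of Tapbp had -0.16 and was not called. Of 17 genes of the Ran cycle and nuclear transport, Ipo5, an importin, had -0.42 and Rangap1, the activator of the GTPase Ran, -0.28, both called lower.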
